A study of Mus musculus with 12 samples.

Results

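The 9 genes Adora2a, Drd2, Penk, Six3, Drd1, Tac1, Isl1, Ppp1r1b and Rgs9, which mark projection neurons of the striatum, were followed through RNA-seq of primary mouse cortical neurons. They were taken by gene name from a deposited expression table of 51912 genes, where each of the 9 names has 1 row. The set was drawn up because these genes stood high in 1 library, replicate 1 of erinacine S at 48 h, so the members were chosen by the TPM values of that library, which are given here without a test. The cells came from the cortex of C57BL/6J embryos at stage E17.5, dissociated with trypsin and plated in medium with serum before a change to neuronal maintenance medium. There were 4 groups of 3 libraries: erinacine S at 1 µg/mL for 48 h, its DMSO solvent control for 48 h, erinacine S at 1 µg/mL for 16 h, and DMSO for 16 h. Erinacine S is a natural product of Hericium erinaceus, an edible fungus. The cultures were not sorted for a cell type in the protocols, and no source used here says how many embryos stand behind a library. The study's design text calls the 3 libraries of a group independent repeats without saying whether they came from separate litters, so p-values speak only of the spread among these 12 libraries, part of which may be technical.

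The striatum is the input nucleus of the basal ganglia, and most of its neurons are GABAergic projection neurons. Those of the indirect pathway carry the dopamine receptor D2 and the adenosine receptor of type 2A and release enkephalin, and those of the direct pathway carry the dopamine receptor D1 and release substance P and dynorphin. Both are born in the lateral ganglionic eminence, below the embryonic cortex, and both use cyclic AMP signalling with the same inhibitor of protein phosphatase 1, DARPP-32. None of the 9 genes is made by striatal neurons alone: Drd1, Penk, Tac1 and Ppp1r1b, for example, are also expressed by some cortical neurons.

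The values are TPM, a unit of transcript abundance that is corrected for transcript length and scaled to the same total in every library, so levels of different genes in a library can be set side by side. All 9 genes had a mean of at least 1 TPM over the 12 libraries and were among the 15623 genes tested. The number of reads behind a TPM value is not known, and the errors given are the spread over the libraries of a group. In bulk RNA, more cells of a type and more RNA of a gene per cell cannot be told apart.

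In coordinates of the mouse build GRCm38, the indirect pathway genes lie at chr10:75316877-75334784 (Adora2a, plus strand), chr9:49340627-49408177 (Drd2, plus strand), chr4:4133531-4138819 (Penk, minus strand) and chr17:85613608-85629302 (Six3, plus strand). The direct pathway genes lie at chr13:54051183-54055705 (Drd1, minus strand), chr6:7554879-7565834 (Tac1, plus strand) and chr13:116298281-116309689 (Isl1, minus strand). The genes used by both lie on chromosome 11, Ppp1r1b at chr11:98348404-98357796 on the plus strand and Rgs9 at chr11:109225355-109298129 on the minus strand. Another gene overlaps 3 of the 9 loci. Six3 shares 4791 bases with Six3os1 on the opposite strand, which had 8.998 to 30.0 TPM in the 12 libraries. The kit marks strand, but no source used here gives the strand setting of the counting, so reads of Six3 and Six3os1 may not be fully separated. The other gene models that overlap Six3 reached at most 1.87 TPM, and the opposite-strand genes that overlap Penk (A830012C17Rik) and Ppp1r1b (1700003D09Rik) at most 0.336 and 0.236 TPM.

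RefSeq promoter windows (GRCm38.p6), from 250 bases before to 50 bases after a transcription start, matched 6 of the 9 genes with 7 windows. The 4 below are shown for the dopamine receptors of the 2 pathways, Drd2 and Drd1, and for Isl1 and Tac1, each of which passed a test over time in 1 of the 2 treatments (Isl1 in DMSO, Tac1 in erinacine S without replicate 1). They run 5′ to 3′ on the strand of the gene, in lower case. Capitals mark the letters TGACG on either strand, the core of the cyclic AMP response element, and TAATTA, a core bound by homeodomain proteins.
Drd2, chr9:49340153-49340452, plus strand: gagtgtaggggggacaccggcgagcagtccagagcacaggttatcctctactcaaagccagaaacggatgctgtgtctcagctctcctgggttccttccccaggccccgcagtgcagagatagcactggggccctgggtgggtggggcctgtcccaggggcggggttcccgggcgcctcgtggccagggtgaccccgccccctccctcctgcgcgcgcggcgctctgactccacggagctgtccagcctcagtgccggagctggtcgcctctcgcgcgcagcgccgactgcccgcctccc
Drd1, chr13:54055609-54055908, minus strand: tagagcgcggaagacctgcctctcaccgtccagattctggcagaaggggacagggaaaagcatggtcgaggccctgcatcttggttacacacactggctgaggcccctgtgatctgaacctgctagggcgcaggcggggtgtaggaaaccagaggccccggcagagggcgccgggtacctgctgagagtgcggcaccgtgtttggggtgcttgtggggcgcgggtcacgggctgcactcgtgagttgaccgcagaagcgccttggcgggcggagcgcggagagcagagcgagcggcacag
Isl1, chr13:116309639-116309938, minus strand: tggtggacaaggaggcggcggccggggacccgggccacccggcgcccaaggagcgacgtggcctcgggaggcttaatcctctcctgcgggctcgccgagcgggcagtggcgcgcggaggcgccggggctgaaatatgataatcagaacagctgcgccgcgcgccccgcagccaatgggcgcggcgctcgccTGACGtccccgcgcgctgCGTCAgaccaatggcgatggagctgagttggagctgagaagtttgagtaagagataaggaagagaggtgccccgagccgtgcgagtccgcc
Tac1, chr6:7554811-7555110, plus strand: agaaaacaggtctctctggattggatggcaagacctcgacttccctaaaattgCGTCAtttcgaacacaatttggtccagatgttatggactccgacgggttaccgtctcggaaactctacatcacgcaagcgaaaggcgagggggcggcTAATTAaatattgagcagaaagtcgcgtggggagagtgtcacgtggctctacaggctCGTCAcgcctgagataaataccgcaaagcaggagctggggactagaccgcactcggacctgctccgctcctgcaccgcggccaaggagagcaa
The G and C content was 70.3% for Drd2, 65.7% for Drd1, 69.0% for Isl1 and 54.0% for Tac1, against a median of 52.7% over all 32851 windows. The core TGACG was found at 59 and 41 bases before the start of Isl1 and at 197 and 43 bases before the start of Tac1, and 20.8% of all windows hold it. TAATTA was found 100 bases before the start of Tac1, and 5.29% of all windows hold it. The GC box letters GGGCGG, searched on both strands and left in lower case, were found 93 and 56 bases before the start of Drd2, 107 bases before that of Tac1 and 16 bases after that of Drd1, and not in the Isl1 window. They occur in 35.7% of all windows. Neither TGACG nor TAATTA was in the Drd2 window or in this Drd1 window. The full element TGACGTCA, the AP-1 letters TGANTCA and the TATA box letters TATAAA were also searched on both strands and were in none of the 4 windows. They occur in 1.79%, 7.81% and 13.6% of all windows. Six3 passed over time in both treatments (in erinacine S without replicate 1), and its window, not shown, held none of the letters searched. The Rgs9 window, also not shown, held TATAAA 195 bases before the start. It held GGGCGG 91 bases before and 40 bases after the start. The other Drd1 window held GGGCGG 133 bases before its start and no other letters searched. These are matches of letters and say nothing of binding. The starts are those of the RefSeq windows, which need not be the ends of the loci given above. The Drd2 window ends at 49340452, before the locus begins at 49340627. The start in the Tac1 window lies inside the locus, which begins at 7554879. Matches counted as before that start can therefore lie inside the Tac1 locus.

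Replicate 1 of erinacine S at 48 h stood apart well beyond the 9 genes. It was the highest of the 12 libraries for 3724 of the 15623 genes tested (23.8%), where each other library was highest for 2.99% to 11.5%, and the lowest for 2693 (17.2%). Its share of TPM from mitochondrially encoded genes was 5.12%, against 5.94% to 7.70% in the other 11 libraries. Across genes its log2 values had a correlation of 0.981 and 0.980 with replicates 2 and 3, where those had 0.995 with each other. Differences of the 9 genes that involve erinacine S at 48 h are therefore given with and without this library. Tests of such differences, for these genes and the other lists, were run without it. Tests at 16 h and over time in DMSO used all 12 libraries for the shared estimate of the spread.

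The values of the 9 genes summed to 263 TPM in erinacine S 48 h replicate 1, and to 114 and 108 TPM in replicates 2 and 3. The sums were 122, 104 and 130.1 TPM in DMSO at 48 h, 143, 158 and 154 TPM in erinacine S at 16 h, and 123, 187 and 154 TPM in DMSO at 16 h. The high library held 2.02 times the median of the other 11. It was the highest of all 12 libraries for 7 of the 9 genes and the highest of the 6 libraries of 48 h for all 9, beside 23.8% and 35.9% of the genes tested, but nothing is read from these counts because that library chose the genes. At the edge of the choice, Ppp1r1b and Tac1 were 1.20 and 1.12 times their next highest library, while Isl1 ranked 5 and Six3 6 among the 12.

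**Figure D1:**
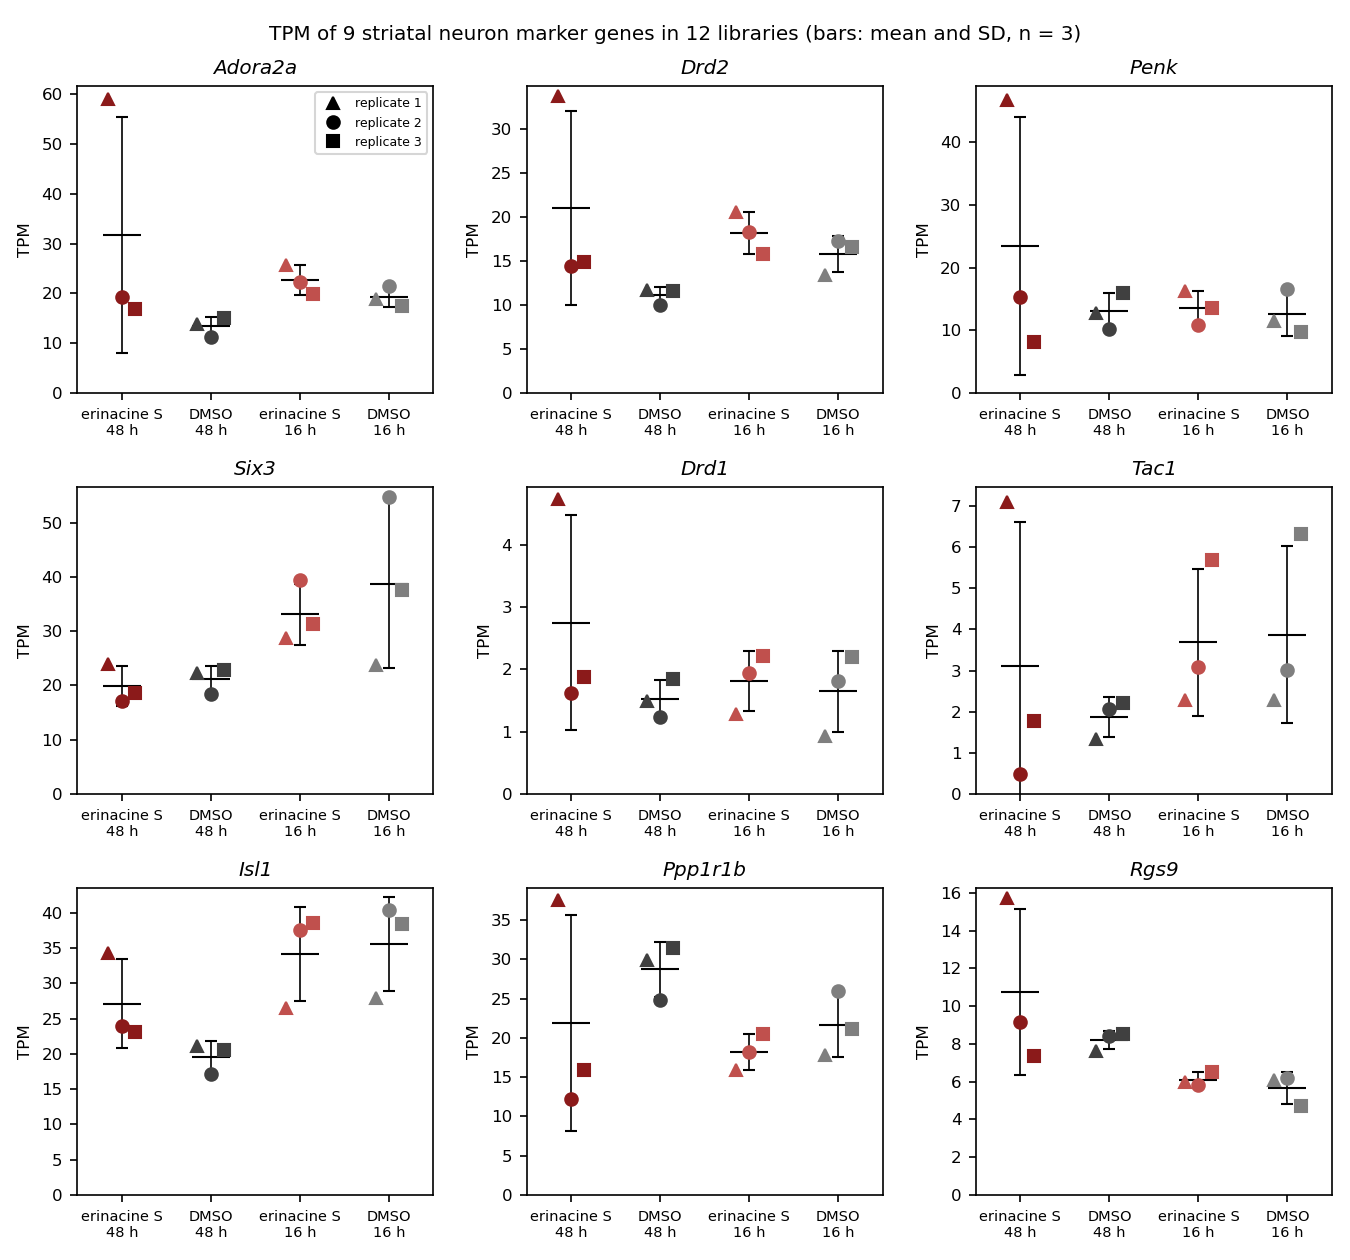
TPM of each of the 9 genes (vertical axes, each starting at 0) in the 4 groups (horizontal axes), with 1 point a library, its shape giving the replicate number, and bars for mean and SD of 3 libraries. The triangle of erinacine S 48 h lies above all other points for Adora2a, Drd2, Penk, Drd1, Tac1, Ppp1r1b and Rgs9, and inside the 16 h range for Isl1 and Six3.

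Among the genes of the indirect pathway, Adora2a, the adenosine receptor of type 2A, had 59.1, 19.3 and 16.8 TPM in erinacine S at 48 h, against 13.8, 11.3 and 15.0 TPM in DMSO at 48 h. At 16 h it had 25.8, 22.4 and 19.9 TPM in erinacine S, against 19.0, 21.6 and 17.4 TPM in DMSO. All 3 treated libraries of 48 h lay above the 3 controls, and replicate 1 was 2.29 times the highest of the other 11 libraries, while the groups of 16 h overlapped. Drd2, the dopamine receptor D2, had 33.7, 14.4 and 14.9 TPM in erinacine S at 48 h, against 11.7, 9.99 and 11.6 TPM in DMSO at 48 h. Its values at 16 h were 20.5, 18.3 and 15.7 TPM in erinacine S, against 13.4, 17.3 and 16.6 TPM in DMSO. It followed the same order as Adora2a: no overlap at 48 h with replicate 1 far above the rest, and overlap at 16 h. The ratio of Drd2 to Adora2a was 0.570 in erinacine S 48 h replicate 1 and 0.709 to 0.952 in the other 11 libraries.

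Penk, which encodes the enkephalin precursor, had 46.8, 15.3 and 8.06 TPM in erinacine S at 48 h, against 12.8, 10.2 and 16.0 TPM in DMSO at 48 h. Its 16 h values were 16.2, 10.9 and 13.5 TPM in erinacine S, against 11.5, 16.7 and 9.76 TPM in DMSO. Replicate 1 was 2.81 times the highest other library, while replicate 2 lay among the controls and replicate 3 below all of them, so the groups overlapped. On the log2(TPM + 1) scale Penk ranked 2 of all 15623 genes by the gap between that library and the next, 1.43, and Adora2a ranked 6, 1.17. Six3, a homeobox gene that developing indirect pathway neurons need in mice, differed from these 3. It had 24.0, 17.1 and 18.6 TPM in erinacine S at 48 h and 22.2, 18.4 and 22.9 TPM in DMSO at 48 h. At 16 h it had 28.7, 39.5 and 31.3 TPM in erinacine S and 23.7, 54.6 and 37.6 TPM in DMSO. The 6 libraries of 16 h all lay above the 5 of 48 h other than erinacine S replicate 1, which was just above the lowest of the 16 h libraries. Six3os1 had 10.4, 12.4 and 11.6 TPM in erinacine S at 48 h, against 8.998, 9.58 and 12.02 TPM in DMSO, and 13.5 to 30.0 TPM in the 6 libraries of 16 h.

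Among the genes of the direct pathway, Drd1, the dopamine receptor D1, was the lowest of the 9 in most libraries. It had 4.74, 1.62 and 1.89 TPM in erinacine S at 48 h and 1.4996, 1.23 and 1.85 TPM in DMSO at 48 h. Its 16 h values were 1.28, 1.95 and 2.22 TPM in erinacine S and 0.927, 1.82 and 2.201 TPM in DMSO. Replicate 1 of erinacine S at 48 h was 2.14 times the highest other library, and the rest overlapped at both times. Tac1, which encodes the substance P precursor, had 7.09, 0.498 and 1.77 TPM in erinacine S at 48 h and 1.33, 2.08 and 2.22 TPM in DMSO at 48 h. At 16 h it had 2.28, 3.10 and 5.70 TPM in erinacine S and 2.28, 3.00 and 6.32 TPM in DMSO. It was the most variable of the 9, with a 12.7-fold range over the 11 libraries other than erinacine S 48 h replicate 1, where the others spanned 1.94 to 3.19-fold. Isl1, a LIM homeobox gene of direct pathway and cholinergic neurons, had 34.4, 24.0 and 23.1 TPM in erinacine S at 48 h and 21.1, 17.1 and 20.6 TPM in DMSO at 48 h. At 16 h it had 26.5, 37.5 and 38.5 TPM in erinacine S and 28.0, 40.4 and 38.5 TPM in DMSO. The treated libraries of 48 h lay above their controls, and the high library fell among those of 16 h.

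Of the genes used by both pathways, Ppp1r1b, which encodes DARPP-32, was the member for which replicate 1 of erinacine S at 48 h lay above, and both other replicates below, all 3 controls. It had 37.6, 12.2 and 15.8 TPM in erinacine S at 48 h, against 29.9, 24.8 and 31.4 TPM in DMSO at 48 h. At 16 h it had 15.9, 18.2 and 20.5 TPM in erinacine S, against 17.8, 25.9 and 21.1 TPM in DMSO. Rgs9, a regulator of G protein signalling that acts on D2 receptor signals, had 15.7, 9.15 and 7.35 TPM in erinacine S at 48 h and 7.63, 8.41 and 8.53 TPM in DMSO at 48 h. Its 16 h values were 5.98, 5.80 and 6.53 TPM in erinacine S and 6.11, 6.17 and 4.72 TPM in DMSO. All 6 libraries of 48 h lay above all 6 of 16 h for Rgs9, the high library at 1.72 times the next.

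In DMSO at 48 h, the order of the levels ran from Ppp1r1b (28.7 ± 3.48 TPM) through Six3 (21.2 ± 2.44), Isl1 (19.6 ± 2.18), Adora2a (13.4 ± 1.87), Penk (13.0 ± 2.88), Drd2 (11.1 ± 0.954) and Rgs9 (8.19 ± 0.486) to Tac1 (1.87 ± 0.479) and Drd1 (1.52 ± 0.309; mean ± SD, n = 3 for each). Six3 and Isl1 overlapped, as did Adora2a, Penk and Drd2, and Tac1 and Drd1. In DMSO at 16 h, Six3 (38.7 ± 15.5 TPM) and Isl1 (35.6 ± 6.68) stood first, ahead of Ppp1r1b (21.6 ± 4.07), Adora2a (19.3 ± 2.095), Drd2 (15.8 ± 2.04), Penk (12.7 ± 3.59), Rgs9 (5.67 ± 0.823), Tac1 (3.87 ± 2.15) and Drd1 (1.65 ± 0.654; mean ± SD, n = 3 for each).

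**Figure D2:**
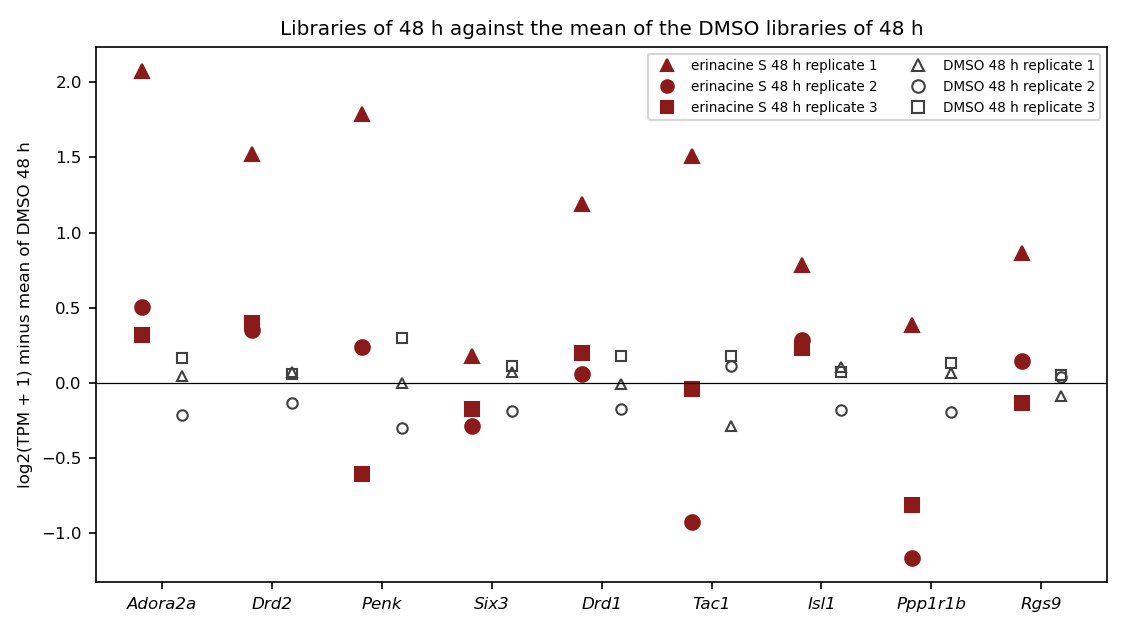
log2(TPM + 1) of the 6 libraries of 48 h minus the mean of the 3 DMSO libraries (vertical axis) for the 9 genes (horizontal axis), with filled points for erinacine S and open points for DMSO. Replicate 1 of erinacine S is the highest point for every gene, and replicates 2 and 3 lie under all DMSO points for Ppp1r1b.

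With all 3 libraries of erinacine S at 48 h, 7 of the 9 genes had a positive difference from DMSO, with a median log2 fold change of 0.43 beside 0.0083 over all genes tested. Adora2a had 0.96, Drd2 0.76, Drd1 0.48, Penk 0.47 and Isl1 0.43, and Ppp1r1b had -0.53 (all on the log2(TPM + 1) scale, and with no test, since they hold the library that chose the genes). Without replicate 1 the median of the 9 was 0.0036 on the same scale, beside -0.0033 over all genes, and 5 of them were positive.

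Tested without replicate 1, 2 libraries against 3, only Ppp1r1b of the 9 genes passed at 48 h, lower in erinacine S than in DMSO. That the others did not pass does not show that they were unchanged. Ppp1r1b averaged 14.0 ± 2.60 TPM in erinacine S (SD, n = 2), against 28.7 ± 3.48 TPM in DMSO (SD, n = 3). Its log2 fold change was -0.99 ± 0.17 (SE), with an adjusted p of 0.0222 in limma with Benjamini-Hochberg adjustment over 15623 genes. In the same test 0.73% of all genes passed, 0.685% lower and 0.0448% higher. The call was lost when any 1 of DMSO replicates 1 and 3 or erinacine S replicates 2 and 3 was left out as well (adjusted p in limma 0.0972 to 0.344), and kept without DMSO replicate 2 (0.0379). With replicate 1 back in, the value was -0.53 on the same scale, and that library alone was 1.31 times the DMSO mean.

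Adora2a, Drd2 and Isl1 lay higher in both remaining treated libraries than in all 3 controls, which with Ppp1r1b makes 4 of 9 genes with no overlap, beside 36.9% of all genes tested. Adora2a averaged 18.02 ± 1.77 TPM in erinacine S (SD, n = 2), against 13.4 ± 1.87 TPM in DMSO (SD, n = 3), a log2 fold change of 0.41 ± 0.14 (SE) that did not pass in limma (adjusted p 0.358). Drd2 averaged 14.7 ± 0.350 TPM in erinacine S, against 11.1 ± 0.954 TPM in DMSO, a log2 fold change of 0.38 ± 0.13 (adjusted p 0.373 in limma). Isl1 had a log2 fold change of 0.26 ± 0.18 (adjusted p 0.77 in limma). The remaining 5 genes had log2 fold changes between -0.48 (Tac1) and 0.13 (Drd1), each with an adjusted p of at least 0.808 in limma.

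At 16 h, no member passed the test between erinacine S and DMSO, and none had groups without overlap, beside 4.19% of all genes. limma called 0% of the genes tested at this time, and 1.29% had an unadjusted p under 0.05. The 9 log2 fold changes lay between -0.23 ± 0.30 (SE) for Ppp1r1b and 0.22 ± 0.34 for Adora2a, with unadjusted p from 0.452 to 0.95 in limma. The shared estimate of the spread included erinacine S 48 h replicate 1, whose high values chose the genes and enter these SE. In the 48 h comparison without that library the SE of Adora2a was 0.14. There the SE was smaller for every member but Six3 (0.26, against 0.24 at 16 h). The p at 16 h thus cannot show that the 9 genes were unchanged. Over all genes tested, libraries with the same replicate number deviated together at 16 h (correlations 0.48, 0.185 and 0.51), but not all members did. Replicate 1 was the lowest of its group for Six3, Drd1, Tac1, Isl1 and Ppp1r1b in both erinacine S and DMSO, and replicate 3 was the highest for Drd1 and Tac1 in both. Others differed: replicate 1 of Drd2 was highest in erinacine S (20.5 TPM) and lowest in DMSO (13.4 TPM). Replicate 2 of Penk was lowest in erinacine S and highest in DMSO, and replicate 3 of Rgs9 highest in erinacine S and lowest in DMSO. For Adora2a only the lowest, replicate 3, was the same.

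**Figure D3:**
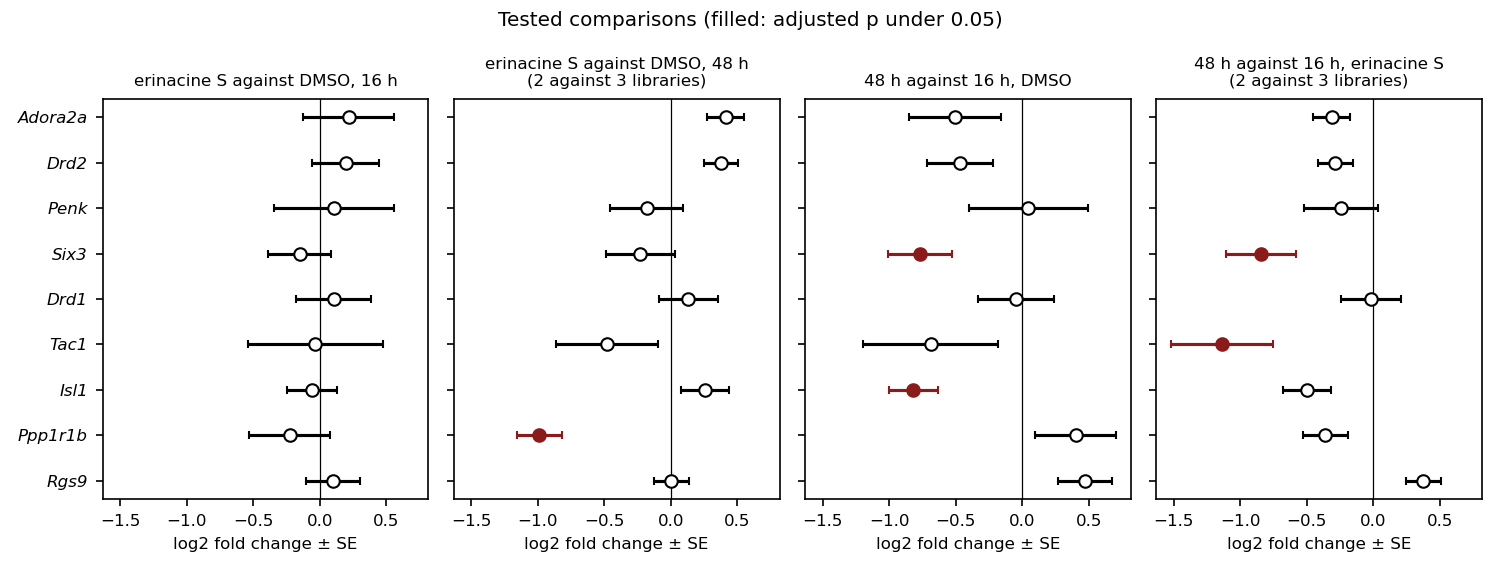
log2 fold change ± SE (horizontal axes) of the 9 genes (vertical axis) in 4 comparisons fitted with limma, filled in red where the adjusted p is under 0.05. The filled points are Ppp1r1b at 48 h, Six3 and Isl1 over time in DMSO, and Six3 and Tac1 over time in erinacine S.

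Over time in the DMSO controls, the transcription factors Isl1 and Six3 fell, and no member passed the test upward. Isl1 averaged 19.6 ± 2.18 TPM at 48 h, against 35.6 ± 6.68 TPM at 16 h (SD, n = 3 each). The log2 fold change was -0.82 ± 0.19 (SE; adjusted p 0.00623 in limma). Six3 averaged 21.2 ± 2.44 TPM at 48 h, against 38.7 ± 15.5 TPM at 16 h (SD, n = 3 each). The log2 fold change was -0.77 ± 0.24 (adjusted p 0.0287 in limma). The 2 calls of 9 stand beside 32.7% of all genes that passed in this comparison, 16.6% lower and 16.1% higher. The call of Isl1 held when each DMSO library, and erinacine S 48 h replicate 1, was left out in turn (adjusted p in limma at most 0.0285). That of Six3 was lost without DMSO 16 h replicate 2 or 3 or any 1 of the DMSO libraries of 48 h (adjusted p in limma 0.0525 to 0.0962).

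The groups did not overlap for 6 of the 9 genes in this comparison, beside 50.5% of all genes tested: Adora2a, Drd2, Six3, Isl1 and Tac1 were lower in every DMSO library of 48 h than in every one of 16 h, and Rgs9 was higher. The receptors did not pass, with log2 fold changes of -0.50 ± 0.34 (SE) for Adora2a (adjusted p 0.28) and -0.47 ± 0.25 for Drd2 (adjusted p 0.17), nor did Rgs9 at 0.47 ± 0.20 (adjusted p 0.0948 in limma). These fits share their estimate of the spread with erinacine S at 48 h. When replicate 1 of that group was left out of the shared estimate, the fold changes were the same by construction and 5 members passed: Adora2a (adjusted p 0.00861), Drd2 (0.00889), Isl1 (0.00242) and Six3 (0.0237) lower, and Rgs9 (0.00879) higher. In that fit 5978 genes passed in limma, against 5107 with the library kept. Penk and Drd1 differed little over time in DMSO, with log2 fold changes of 0.048 ± 0.45 and -0.045 ± 0.28 (SE).

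Over time in erinacine S, again without replicate 1 of 48 h, Six3 and Tac1 fell. Six3 averaged 17.9 ± 1.04 TPM at 48 h (SD, n = 2), against 33.1 ± 5.64 TPM at 16 h (SD, n = 3), a log2 fold change of -0.85 ± 0.26 (SE; adjusted p 0.0359 in limma). Tac1 averaged 1.13 ± 0.898 TPM at 48 h, against 3.69 ± 1.79 TPM at 16 h, a log2 fold change of -1.14 ± 0.38 (adjusted p 0.0499 in limma). These 2 of 9 stand beside 25.5% of all genes that passed, 13.4% lower and 12.1% higher. Both calls were lost without erinacine S 16 h replicate 2 or 3, or without erinacine S 48 h replicate 2 or 3 (adjusted p in limma up to 0.18 for Six3 and 0.371 for Tac1). Isl1 (-0.50 ± 0.18, SE) and Rgs9 (0.38 ± 0.13) had adjusted p of 0.0619 and 0.0551 in limma. With the replicate number as a block Isl1 passed (adjusted p 0.0235 in limma, or 0.0144 with the block within each time), though same-numbered libraries of the 2 times did not deviate together. Groups did not overlap for 7 of the 9 genes, beside 55.3% of all genes: Adora2a, Drd2, Six3, Tac1, Isl1 and Ppp1r1b lower at 48 h, and Rgs9 higher.

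With replicate 1 of 48 h kept, the differences over time in erinacine S, given without a test, were -0.71 for Six3, -0.47 for Tac1, -0.32 for Isl1 and 0.66 for Rgs9 on the log2(TPM + 1) scale. The sign turned for 5 genes between the values without and with that library. Penk had -0.24 without it and 0.42 with it, and Drd1 -0.018 and 0.34. Adora2a had -0.31 without it and 0.24 with it, Drd2 -0.28 and 0.097, and Ppp1r1b -0.36 and 0.098.

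Without replicate 1 of erinacine S at 48 h, Ppp1r1b had opposite signs over time in the 2 treatments, with log2 fold changes of -0.36 ± 0.17 (SE) in erinacine S and 0.40 ± 0.30 in DMSO, neither of which passed in limma (adjusted p 0.14 and 0.329). The test of that difference itself, the interaction, gave -0.76 ± 0.22 (SE) for Ppp1r1b, with an unadjusted p of 0.00591 and an adjusted p of 0.801 in limma. With that library kept, Ppp1r1b was positive over time in both treatments and the interaction was -0.31, given without a test. The interactions of the other 8 genes with it kept lay between 0.059 (Six3) and 0.75 (Adora2a). Without it, no gene passed the interaction (0% of 15623, with 4.1% at an unadjusted p under 0.05).

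Further genes of the same neurons were read from lists compiled from general knowledge with earlier results of these data known, so their counts are a description. In erinacine S 48 h replicate 1, 23 of 34 further striatal genes were the highest of the 12 libraries and 4 were the lowest, beside 23.8% and 17.2% of all genes. The count is not particular to striatal neurons, since some of the 34 are also expressed by other GABAergic neurons. Of these, Gad1 (150 TPM, against at most 126 elsewhere) and Slc32a1 (111 TPM, against at most 80.8) were among the 23. Gad2 was not (60.7 TPM, against at most 61.1). Gpr6, an orphan receptor of indirect pathway neurons, had 14.9, 7.42 and 7.71 TPM in erinacine S at 48 h, against 8.57, 6.34 and 8.22 TPM in DMSO at 48 h. Pdyn, the dynorphin precursor of direct pathway neurons, had 3.38, 0.543 and 0.713 TPM in erinacine S at 48 h, against 1.09, 0.811 and 2.16 TPM in DMSO at 48 h. Both were highest in replicate 1, with replicates 2 and 3 within the DMSO range for Gpr6 and below it for Pdyn. Of 13 transcription factors of the lateral ganglionic eminence, 3 were highest in that library and 6 were lowest. Sp9, Ebf1, Zfp503, Meis2 and Foxp2 are also among the 34, and Ebf1 and Foxp2 are counted among the 23 too. The 3 that were highest in that library were Dlx6 (27.2 TPM), Ebf1 (14.0 TPM) and Foxp2 (26.7 TPM). Gsx1, a homeobox gene of eminence progenitors, had 0.926 TPM there, 4.34 and 4.89 TPM in the other 2 libraries of erinacine S at 48 h, and 5.72, 5.81 and 5.01 TPM in DMSO at 48 h.

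Genes of other cell types moved in the same library. Of 14 cortical interneuron genes, 9 were highest in erinacine S 48 h replicate 1, beside 23.8% of all genes tested. The summed level of the list was 1642 TPM there, against 576 and 630.2 TPM in replicates 2 and 3 and 739 to 1037 TPM in DMSO at 48 h. Sst, the somatostatin precursor, had 1019 TPM there and 191 to 653 TPM in the other 11 libraries, and Lhx6, a transcription factor of interneurons from the medial eminence, had 174 TPM and 68.1 to 109 TPM. The summed level of 15 cortical excitatory neuron genes was 1901 TPM, against 2241 and 2310 TPM in replicates 2 and 3 and 2152 to 2201 TPM in DMSO at 48 h. Tbr1, of deep layer cortical neurons, was at 171 TPM there and 167 to 273 TPM in the other libraries, and Slc17a7, the vesicular glutamate transporter of cortical excitatory neurons, at 11.6 TPM and 6.54 to 10.7 TPM. Markers of the labelled cell type were thus detected in every library.

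Markers of dividing cells, radial glia and microglia lay low in that library, and those of astrocytes and the oligodendrocyte lineage lay low beside the other libraries of 48 h. All 10 dividing cell genes, 8 of 10 radial glia and progenitor genes, 4 of 8 astrocyte genes, 2 of 8 oligodendrocyte lineage genes and 5 of 5 microglia genes were at their lowest there. Of all genes tested, 17.2% were at their lowest there, a share near that of the oligodendrocyte lineage genes. The summed level of the radial glia and progenitor list was 283 TPM, against 836 and 871 TPM in replicates 2 and 3 and 794 to 843 TPM in DMSO at 48 h. Mki67, a proliferation marker, had 5.46 TPM there and 12.2 to 21.2 TPM in the other libraries. Slc1a3, of astrocytes and radial glia, had 21.2 TPM and 24.2 to 74.1 TPM, and Olig1, of the oligodendrocyte lineage, 20.5 TPM and 23.1 to 135 TPM. The summed level of the astrocyte list was 168 TPM, against 280.1 and 287 TPM in replicates 2 and 3 and 162 to 195 TPM in the libraries of 16 h, and its member Slc1a2, a glutamate transporter, was highest there at 13.1 TPM. The oligodendrocyte lineage list summed to 74.8 TPM, against 183 to 196 TPM in replicates 2 and 3 and 65.8 to 116 TPM in the libraries of 16 h. C1qa, a complement gene of microglia, was listed at 0 there and had 1.16 to 5.51 TPM elsewhere. The part of these differences in the high values of the 9 genes was not tested. Chat, of cholinergic neurons, reached at most 0.176 TPM, and Th, of dopamine neurons, at most 1.51 TPM.

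**Figure D4:**
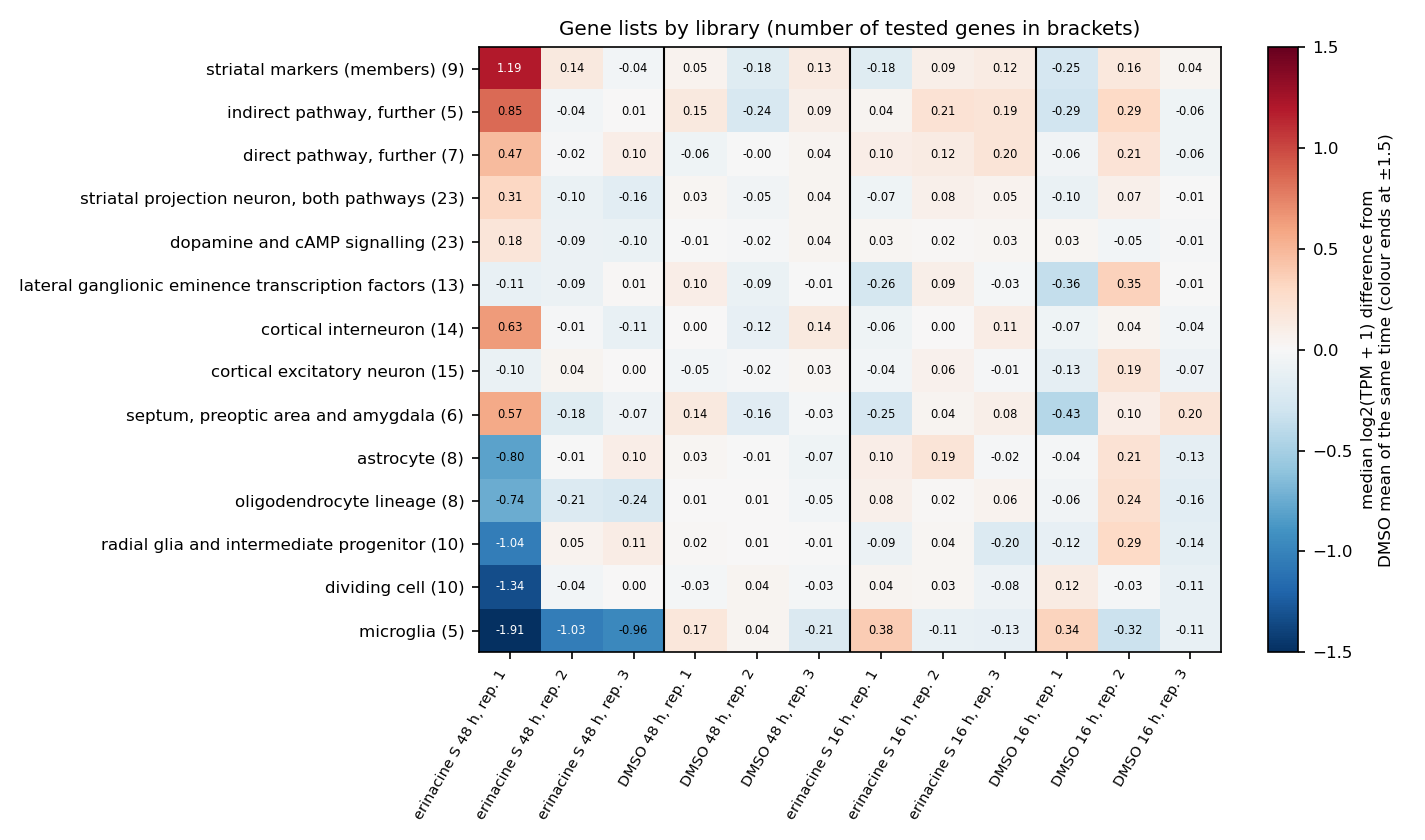
Median over the genes of a list of the log2(TPM + 1) difference from the mean of the DMSO libraries of that time (colour and printed values), for 14 lists (rows) in the 12 libraries (columns). The 9 genes stand at 1.19, 0.14 and -0.04 in replicates 1, 2 and 3 of erinacine S at 48 h. Cortical interneuron genes are also above 0 in replicate 1, and dividing, radial glia and microglia genes below 0.

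In the tested comparisons, genes of striatal signalling did not all move with the 9. At 48 h without replicate 1, 2 of 23 genes of projection neurons of both pathways passed, both lower in erinacine S. Of all genes tested, 0.685% passed lower in this comparison. Arpp21, which encodes a cyclic AMP-regulated phosphoprotein, had 133 TPM in replicate 1 and 97.5 and 105 TPM in replicates 2 and 3, against 129, 126 and 135 TPM in DMSO at 48 h. Its log2 fold change without replicate 1 was -0.36 (adjusted p 0.0206 in limma), and this call was lost whichever other library of the groups compared was left out. Arpp21 thus lay like Ppp1r1b in replicates 2 and 3, both below all 3 controls, while its replicate 1 lay among them. Of 5 microglia genes, 3 also fell in this comparison, C1qa by 1.25 on the log2 scale (adjusted p 0.0114 in limma). The C1qa call was lost without DMSO 48 h replicate 1 or erinacine S 48 h replicate 2 or 3 (adjusted p up to 0.183). None of the 13 transcription factors of the lateral ganglionic eminence and none of the 14 cortical interneuron genes passed, and no gene of any list passed at 16 h.

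Over time in DMSO, 16.1% of all genes tested rose and 16.6% fell. Of 23 tested genes of dopamine and cyclic AMP signalling, 18 rose and 1 fell, and their median was 0.35 on the log2 scale, beside -0.027 over all genes. Gnal, the G protein subunit through which striatal receptors raise cyclic AMP, had 98.3, 98.7 and 103 TPM at 48 h, against 44.9, 40.6 and 42.3 TPM at 16 h. Its log2 fold change was 1.21 (adjusted p 0.000339 in limma). Pde10a, a phosphodiesterase abundant in striatal neurons, had 68.5, 64.5 and 63.5 TPM at 48 h, against 44.9, 40.9 and 36.5 TPM at 16 h (log2 fold change 0.67, adjusted p 0.000285 in limma). Of 23 genes of projection neurons of both pathways, 10 rose and none fell. Adcy5, the main striatal adenylyl cyclase, was among those that rose (log2 fold change 0.99, adjusted p 0.000661 in limma). Of the 13 eminence transcription factors, 3 fell, none rose and 10 did not pass, a share near that of all genes. Dlx2 had 94.9, 78.7 and 83.8 TPM at 48 h, against 127, 208 and 149 TPM at 16 h (log2 fold change -0.88, adjusted p 0.00123 in limma), and Dlx5 fell by 0.71 on the log2 scale (adjusted p 0.00447). The calls of Gnal, Pde10a, Adcy5, Dlx2 and Dlx5 held when each DMSO library, and erinacine S 48 h replicate 1, was left out in turn. Without DMSO 16 h replicate 1, 5 eminence factors fell.

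Over time in erinacine S without replicate 1, 13 of the 23 signalling genes rose and 1 fell, and 2 of the 13 eminence factors fell, where 12.1% of all genes tested rose and 13.4% fell. The share of eminence factors was near that of all genes. Gnal again rose, with 93.0 and 86.3 TPM at 48 h, against 50.5, 43.3 and 47.6 TPM at 16 h (log2 fold change 0.92, adjusted p 3.98e-05 in limma). The count of signalling genes that rose was 8 without erinacine S 48 h replicate 2. Of the 23 genes of both pathways, 7 rose and 1 fell, and 4 rose without erinacine S 48 h replicate 3. The comparison over time in DMSO and that between treatments at 48 h share the DMSO libraries of 48 h, so the levels of Ppp1r1b and Arpp21 in DMSO at 48 h enter both.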

How the data were processed

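RNA-seq values were deposited by the authors as 1 table of TPM per gene for 12 libraries, with 0.0001 in place of 0. The submitters' processing notes name the build GRCm38.p5 and, without settings, HISAT2, StringTie 2.1.3, SAMtools, Trimmomatic 0.36, bcl2fastq 2.20 and FastQC. Values of log2(TPM + 1) entered a limma fit (version 3.58.1, R 4.3.3; trend, 1 mean per group) of 15623 genes with a mean of at least 1 TPM, two-sided, with Benjamini-Hochberg adjustment and a threshold of 0.05. A fold change on this scale understates the change of low genes. Comparisons with erinacine S at 48 h, and the interaction, used 11 libraries, without replicate 1 of that group. The scripts were tested on simulated data. Groups and replicate numbers came from the sample titles.

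The members and all 18 gene lists (196 symbols, of which Gpr52 has no row) were chosen with earlier results of these data known. Named genes were every member, up to 4 called genes of a list by smallest p, defining markers of other cell types, the 8 genes closest to the mean scaled profile of the members over the 12 libraries, and the 8 with the largest gap above the next library, of which the text gives part, and 1 gene that passed is not reported here. Same-numbered libraries of erinacine S and DMSO at 16 h deviated together from their group means (correlations across genes 0.48, 0.185 and 0.51). The match of replicate 2 was weak, since erinacine S replicate 2 had 0.109 with DMSO replicate 3. The labels state no pairing, and the main test at 16 h used none. Alternatives were pseudocounts of 0.1 and 5, no filter (a mean above 0.01 TPM), a mean of at least 5 TPM, median-ratio scaling, the replicate number as a block, only the groups compared and each library of the groups compared left out in turn. Libraries of groups not compared were kept, but for erinacine S 48 h replicate 1.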

Additional observations from a re-analysis of the deposited data

How the results depend on the processing

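No alternative turned the direction of a passed result. For DMSO 48 h against 16 h, 2 members passed, against 1 with no filter, 4 with only the groups compared, and 5 (with 5978 genes) without erinacine S 48 h replicate 1, an alternative chosen after seeing the data. Leaving out each DMSO library in turn gave 1 to 2 members and 3401 to 4585 genes (5107 with all). For erinacine S against DMSO at 48 h without replicate 1, 1 member passed, against 0 with no filter. Leaving out each other library gave 0 to 1 members and 4 to 65 genes. Of all genes, 114 passed there, against 261 with only the groups compared. For erinacine S 48 h against 16 h without replicate 1, 2 members passed, against 0 with no filter and 1 each with a mean of at least 5 TPM and with only the groups compared. Leaving out each library gave 0 to 3 members and 1510 to 4622 genes (3982 with none of these left out). Where erinacine S 48 h replicate 2 or 3 was left out, the lone library was assumed to vary like the other groups. The interaction called 1 gene with no filter, 1 with the replicate block within each time, and 0 to 6 when each library was left out. The causes were not tested, beyond the smaller number of libraries and the larger number of genes that some alternatives have by construction.

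With the replicate block, 0 genes passed at 16 h. The block gave 108 genes (85 within each time) and 1 member for erinacine S against DMSO at 48 h, and 5173 genes (5360 within each time) and 2 members for DMSO over time. For erinacine S over time it added Isl1 (adjusted p 0.0235, or 0.0144 within each time, in limma), for 3 members. Same-numbered libraries did not deviate together at 48 h (correlations across genes -0.022, 0.107 and -0.192), nor between the times in DMSO (-0.037, -0.182 and -0.01) or in erinacine S (-0.11, 0.027 and -0.18). Median-ratio scaling factors were 0.978 to 1.02. Depth is unknown, so the counting error of Drd1 and Tac1, the members with the lowest levels, is not known.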

Other observations

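Among the 15623 genes tested, those whose scaled profile over the 12 libraries lay closest to the mean profile of the 9 striatal markers were Enah, Meaf6, Slc1a4, Slc16a9, Ankrd55, Slc16a14, Sulf2 and Gpr149, at root mean square distances of 0.363 to 0.450. The libraries share depth and handling, and the profile is led by a single library. Enah, an actin regulator, had 160 TPM in erinacine S 48 h replicate 1 and 80.9 to 108 TPM in the other 11 libraries. Slc1a4, a neutral amino acid transporter, had 117 TPM there and 80.6 to 88.9 TPM in the other 11. Gpr149, an orphan receptor, had 3.83 TPM there and 1.18 to 2.77 TPM elsewhere. The 9 markers themselves ranked lower on this measure, Adora2a highest of them at 20 and Drd1 next at 21.

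The largest gaps between erinacine S 48 h replicate 1 and the next highest library on the log2(TPM + 1) scale, among genes with a given name, were those of Penk (1.43), Adora2a (1.17), Grm3 (1.41), Nxph2 (1.23), Cntnap3 (1.18), Tenm1 (1.12), Otof (1.10), Sprn (1.10), Snhg11 (1.09) and Erbb4 (1.08). Grm3, a metabotropic glutamate receptor, had 26.9, 8.62 and 6.37 TPM in erinacine S at 48 h, against 8.87, 7.35 and 9.51 TPM in DMSO at 48 h. Tenm1, a teneurin of growing axons, had 19.5, 8.44 and 5.26 TPM in erinacine S at 48 h, against 7.37, 7.42 and 8.08 TPM in DMSO at 48 h. Erbb4, the neuregulin receptor of interneurons, had 55.9, 22.2 and 19.8 TPM in erinacine S at 48 h, against 25.8, 19.8 and 25.8 TPM in DMSO at 48 h. In each of these 3 genes replicates 2 and 3 lay near the controls and replicate 1 far above both. Gaps for Drd1 (0.83), Rgs9 (0.72) and Drd2 (0.69) ranked 44, 85 and 97 of all genes tested.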
